A study of Mus musculus with 14 samples.

Results

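The genes described are 9 extracellular antagonists and modulators of BMP signalling, *Grem1*, *Nog*, *Chrd*, *Bmper*, *Smoc1*, *Smoc2*, *Twsg1*, *Nbl1* and *Fst*, chosen by their symbols among the 23284 genes counted. Their transcripts were measured by RNA-seq in mouse forelimb buds of the NMRI strain, with the pooled bud pair of 1 embryo as 1 replicate. Wild-type embryos (*Smad4*+/+ PrxCreT/+, n=3 per stage) were compared with embryos lacking *Smad4* in the limb bud mesenchyme (*Smad4*Δ/Δc PrxCreT/+, n=4 per stage), at E10.0 (30 somites) and at E10.5 (35 somites). Every embryo, the wild type included, carried the *Prrx1*-CRE transgene, which is active in limb bud mesenchyme and not in the overlying ectoderm. The mutants had a constitutive null allele beside the conditional one, so that their other tissues had a single functional copy of *Smad4*.

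BMPs are secreted ligands that bind paired receptors, whose kinases phosphorylate SMAD proteins that enter the nucleus with SMAD4 and regulate target genes. Secreted antagonists bind the ligands outside of the cell and keep them from the receptors. In the limb bud, GREM1 from the posterior mesenchyme lowers BMP activity and thereby keeps up the feedback loop between SHH and the FGFs of the apical ectodermal ridge. NOG and CHRD are classical ligand traps, TWSG1 and BMPER bind both CHRD and BMPs and can inhibit or promote signalling, NBL1 (DAN) belongs to the protein family of GREM1, FST mainly binds activins, and SMOC1 and SMOC2 are related matricellular proteins that antagonise BMP signalling.

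*Smad4* itself fell from 161 ± 8.43 CPM (SD, n=3) in wild type to 39.8 ± 4.19 CPM (SD, n=4) in mutants at E10.0, and from 166 ± 2.27 to 37.0 ± 3.43 CPM at E10.5. CPM are counts scaled to library size (TMM) in libraries that held 34066930 to 61691258 reads on genes. Of 10 lists of cell type markers, the limb bud mesenchyme markers summed to 1119-1282 CPM in wild type against 919-1059 CPM in mutants at E10.0, and to 1329-1382 against 1046-1139 CPM at E10.5. Of the hindlimb genes, *Pitx1* was under 1 CPM in every embryo, and *Tbx4* was called higher in mutants at E10.5 (log2 fold change 0.79, adjusted *P*=0.0955, edgeR's exact test), though not without mutant libraries 4 and 5 (0.68, adjusted *P*=0.307). Mutant libraries 4 and 5 of both stages stood apart from the other 10 in a principal component analysis and in the ribosomal RNA precursor *Rn45s* (1.72%-8.05% of reads on genes against 0.151%-0.478%). All 4 are mutants, and the other 4 mutant libraries had 0.151% to 0.456% *Rn45s*. Genotype differences without libraries 4 and 5 are given beside the results of the members tested and of the pathway genes named as called. Values of single embryos follow the replicate numbers, which are 1, 2 and 3 in wild type, 1, 3, 4 and 5 in mutants at E10.0, and 1, 2, 4 and 5 in mutants at E10.5.

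Of the 9 genes, 7 reached 1 CPM (here scaled to library size without TMM) in at least 3 of the 14 embryos and were tested. A gene was called differentially expressed at an adjusted *P* of at most 0.1 (Benjamini-Hochberg over 12393 genes, edgeR's exact test) and a fold change of at least 1.2. At E10.0, *Smoc1* and *Smoc2* were called higher and *Grem1* lower in mutants, with 6.61% of all genes tested called (3.33% higher, 3.28% lower). This even split of 413 and 406 genes became 512 higher and 336 lower with RLE scaling, 519 and 313 with *Rn45s* left out, and 765 and 1253 without mutant libraries 4 and 5. At E10.5 the same 3 genes were called in the same directions, with 3.73% of all genes called (2.19% higher, 1.54% lower). *Chrd*, *Bmper*, *Twsg1* and *Nbl1* were not called at either stage, and *Nog* and *Fst* stayed below the minimum level. In wild-type buds the members' transcripts were mostly *Twsg1*, *Smoc1* and *Grem1*. In mutants *Smoc1* approached the level of *Twsg1* and *Grem1* fell behind *Nbl1*.

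The promoters of 5 members are held in RefSeq's table for GRCm38.p6, a later build than the mm9 of the counts. Those of *Grem1*, the member called lower, and of *Twsg1*, an abundant member that was not called, are printed from 250 bases before the start site to 50 after it, on the strand of the gene. Capitals mark the letters of the SMAD box, GTCT on either strand (AGAC on the strand printed), and of the GC-rich core of BMP-responsive elements, GGCGCC, which reads the same on both strands and does not overlap the other here. The *Grem1* window lies at chr2:113758599-113758898 on the minus strand and that of *Twsg1* at chr17:65951138-65951437, also on the minus strand.
Grem1: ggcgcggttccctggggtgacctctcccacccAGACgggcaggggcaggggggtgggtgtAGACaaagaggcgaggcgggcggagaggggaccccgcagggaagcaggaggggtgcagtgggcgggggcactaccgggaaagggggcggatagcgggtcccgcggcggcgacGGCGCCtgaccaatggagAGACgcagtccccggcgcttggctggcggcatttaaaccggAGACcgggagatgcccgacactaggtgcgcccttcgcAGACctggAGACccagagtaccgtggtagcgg
Twsg1: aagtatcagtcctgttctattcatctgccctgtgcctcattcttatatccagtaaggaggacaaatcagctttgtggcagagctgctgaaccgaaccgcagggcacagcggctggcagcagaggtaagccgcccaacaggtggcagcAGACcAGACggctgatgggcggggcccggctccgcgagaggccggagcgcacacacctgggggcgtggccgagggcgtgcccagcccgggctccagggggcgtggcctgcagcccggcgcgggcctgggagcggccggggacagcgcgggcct
The *Grem1* window held 1 GGCGCC, 78 bases before the start site, and 6 SMAD boxes. The *Twsg1* window held no GGCGCC and 2 SMAD boxes. Among all 32851 promoters of the table, 11.9% held GGCGCC, 88% held a SMAD box, and 3.52% held 6 or more SMAD boxes. The match is a description of the letters and was not related to binding. The *Chrd* and *Nbl1* windows held 1 GGCGCC each and the *Bmper* window none, with 2, 2 and 3 SMAD boxes.

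*Grem1* (chromosome 2, 113586321 to 113598803, minus strand, mm9; 1 annotated transcript) was lower in the mutants at both stages. At E10.0, the wild-type embryos had 26.4, 18.4 and 24.9 CPM and the mutants 9.89, 8.57, 10 and 11.4 CPM. Each mutant embryo lay below each wild-type embryo, and the *Grem1* reads behind these values numbered 366 to 1442. The mean was 23.2 ± 4.26 CPM (SD, n=3) in wild type and 9.97 ± 1.16 CPM (SD, n=4) in mutants, 2.33-fold lower (log2 fold change -1.22 ± 0.182 standard error, edgeR's exact test with an adjusted *P*=1.73e-15). At E10.5, the wild-type embryos had 32.1, 25.9 and 27.8 CPM and the mutants 14.5, 14, 13.4 and 11.8 CPM. The genotypes were again apart in every embryo, with means of 28.6 ± 3.16 CPM (n=3) and 13.4 ± 1.19 CPM (n=4), 2.13-fold lower in mutants (log2 fold change -1.09, standard error 0.112, adjusted *P*=9.34e-13). Without mutant libraries 4 and 5 the log2 fold changes were -1.32 and -0.99, both still called.

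*Smoc1* (chromosome 12, 82127795 to 82287401, plus strand) changed the opposite way. At E10.0, the wild-type embryos had 49.9, 40.1 and 47.9 CPM and the mutants 86.6, 71.6, 86.4 and 102 CPM. No mutant embryo overlapped with the wild type. The rise from 46.0 ± 5.22 CPM (n=3) to 86.7 ± 12.4 CPM (n=4) was 1.88-fold (log2 fold change 0.91 ± 0.143 standard error, edgeR's exact test with an adjusted *P*=1.79e-14). At E10.5, the wild-type embryos had 68.8, 66.4 and 69.5 CPM and the mutants 134, 123, 133 and 131 CPM. The means of 68.2 ± 1.63 CPM and 130 ± 4.78 CPM differed 1.91-fold (log2 fold change 0.93, standard error 0.0335, adjusted *P*=2.69e-15). Without mutant libraries 4 and 5 the log2 fold changes were 0.80 and 0.92, and both stayed called. Every mutant embryo at E10.0 already had more *Smoc1* than any wild-type embryo at E10.5, a pair of groups that differ in stage and genotype and were not tested against each other. *Smoc1* overlaps the annotated AC124398.1, and the reads were counted without strand.

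*Smoc2* (chromosome 17, 14416513 to 14541797, plus strand), the paralogue of *Smoc1*, was rarer and had the largest fold change of the members tested at both stages. At E10.0, the wild-type embryos had 2.39, 1.90 and 1.28 CPM and the mutants 6.57, 5.97, 6.64 and 4.6 CPM. All mutants were above all wild-type embryos. The means were 1.86 ± 0.560 CPM (n=3) and 5.94 ± 0.945 CPM (n=4), 3.18-fold higher in mutants (log2 fold change 1.67 ± 0.286 standard error, edgeR's exact test with an adjusted *P*=6.09e-15). At E10.5, the wild-type embryos had 4.13, 4.87 and 5.65 CPM and the mutants 13, 13.8, 13.9 and 14.3 CPM. The mutants lay within a narrow range far above the wild type, with means of 4.88 ± 0.757 and 13.8 ± 0.545 CPM, 2.81-fold higher (log2 fold change 1.49, standard error 0.132, adjusted *P*=5.96e-14). Without mutant libraries 4 and 5 the log2 fold changes were 1.76 and 1.46. These counts are of whole bud pairs, in which more expressing cells and more transcript per cell cannot be told apart.

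**Figure D1:**
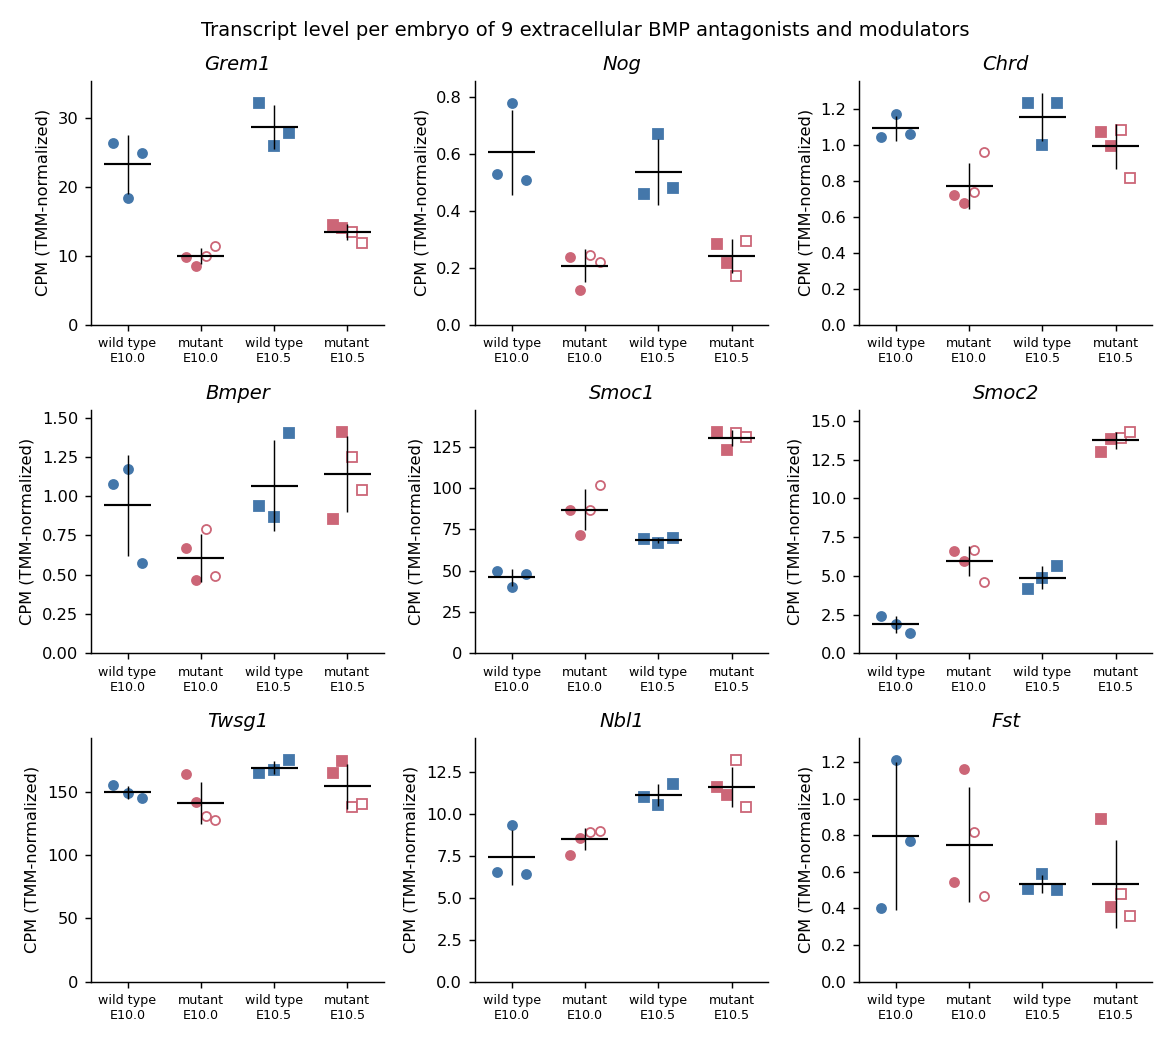
TMM-normalized CPM (linear axes from 0) of the 9 genes, with 1 point per embryo (circles E10.0, squares E10.5, blue wild type, red mutant, open symbols mutant libraries 4 and 5), horizontal lines for group means and vertical lines for the SD. At both stages the mutants lie below the wild type for *Grem1* and *Nog* and above it for *Smoc1* and *Smoc2*, with no overlap.

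*Nog*, on chromosome 11 (89161952 to 89163873, minus strand), was near the limit of detection and was not among the genes tested. The wild-type embryos gave 29, 38 and 23 reads at E10.0, then 19, 34 and 22 reads at E10.5. The mutants gave 14, 7, 9 and 9 reads at the first stage and 16, 11, 6 and 9 at the second. In CPM, the means at E10.0 were 0.604 ± 0.15 (n=3) and 0.207 ± 0.0581 CPM (n=4), and 0.535 ± 0.115 and 0.241 ± 0.0588 CPM at E10.5. The mutants lay below the wild type in every embryo at both stages, including those outside of libraries 4 and 5. When all 18612 autosomal genes with a read were tested, *Nog* was called lower at E10.0 (log2 fold change -1.54, adjusted *P*=0.00118, edgeR's exact test, 4.28% of genes called) and at E10.5 (log2 fold change -1.15, adjusted *P*=0.0468, 2.72% of genes called). The call therefore rests on the choice of no minimum level.

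*Chrd* (chromosome 16, 20733200 to 20742457, plus strand) was close to 1 CPM and reached it in 8 of the 14 embryos, none of them mutants at E10.0. At E10.0, the wild-type embryos had 1.04, 1.17 and 1.06 CPM and the mutants 0.718, 0.675, 0.737 and 0.959 CPM. The groups did not overlap, but the gene was not called (log2 fold change -0.50 ± 0.117 standard error, edgeR's exact test with an adjusted *P*=0.235). At E10.5 they did overlap, with means of 1.15 ± 0.129 and 0.988 ± 0.121 CPM and a log2 fold change of -0.20 (adjusted *P*=0.899). *Chrd* overlaps *Thpo*, and it had 25 to 60 reads per embryo. The log2 fold changes without mutant libraries 4 and 5 were -0.62 and -0.14, neither called.

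*Bmper* (chromosome 9, 23027520 to 23289646, plus strand) was as rare, with 20 to 72 reads, and reached 1 CPM in 6 embryos. At E10.0, the wild-type embryos had 1.08, 1.17 and 0.572 CPM and the mutants 0.667, 0.467, 0.792 and 0.492 CPM. The lowest wild-type embryo lay within the mutant range, and the difference was not called (log2 fold change -0.65 ± 0.352 standard error, edgeR's exact test with an adjusted *P*=0.242). At E10.5 the means were 1.07 ± 0.291 and 1.14 ± 0.240 CPM (log2 fold change 0.09, adjusted *P*=0.987). The values without mutant libraries 4 and 5 were -0.71 and 0.09, neither called.

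*Twsg1* (chromosome 17, 66272406 to 66300527, minus strand) was the most abundant member and did not pass the test for genotype. At E10.0, the wild-type embryos had 155, 149 and 145 CPM and the mutants 164, 142, 131 and 128 CPM. At E10.5 the wild type had 165, 167 and 175 CPM and the mutants 165, 174, 138 and 140 CPM. Libraries 4 and 5 were the lowest of each mutant group, and the others lay among or near the wild type. Log2 fold changes were -0.08 at the earlier stage (adjusted *P*=0.747, edgeR's exact test) and -0.13 at the later one (adjusted *P*=0.786), and 0.05 and 0.01 without these libraries.

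*Nbl1* (chromosome 4, 138638199 to 138648908, minus strand) had 7.42 ± 1.65 CPM (6.43 to 9.32, n=3) in wild type and 8.50 ± 0.661 CPM (7.54 to 8.95, n=4) in mutants at E10.0, and 11.1 ± 0.632 and 11.6 ± 1.2 CPM at E10.5. The genotypes overlapped at both stages, and neither difference was called (log2 fold change 0.19 and 0.06, adjusted *P*=0.529 and 0.974, edgeR's exact test), nor without mutant libraries 4 and 5 (0.14 and 0.04). *Fst* (chromosome 13, 115242470 to 115249159, minus strand) ranged from 0.358 to 1.21 CPM over all embryos, reached 1 CPM in 2 of them, and spread more within groups than between them. Its log2 fold changes in the fit with no minimum level were -0.05 and 0.04, neither called.

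Over all 9 genes, wild-type and mutant embryos did not overlap for 5 genes at E10.0 (*Grem1*, *Nog*, *Chrd*, *Smoc1* and *Smoc2*) and for 4 at E10.5 (the same without *Chrd*). Among all genes tested, 17.8% and 13.0% had groups that did not overlap. The median log2 fold change of the 7 members tested was -0.08 and 0.06 at these stages, against -0.02 and -0.01 for all genes, since members moved in both directions. No member's genotype difference changed between the stages past an adjusted *P* of 0.1 (edgeR's quasi-likelihood test of the interaction, adjusted *P* 0.940 to 0.991). For this interaction, 0.186% of all genes were called.

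The comparison of the stages within each genotype shows how the same transcripts changed while the bud grew out. In wild type, *Smoc1*, *Smoc2* and *Nbl1* were called higher at E10.5 than at E10.0 and no member was called lower, with 10.1% of all genes called (5.39% higher, 4.74% lower). *Smoc2* rose 2.61-fold (log2 fold change 1.39 ± 0.289 standard error, edgeR's exact test with an adjusted *P*=1.65e-09), *Nbl1* 1.5-fold (log2 fold change 0.58, standard error 0.181, adjusted *P*=0.00557) and *Smoc1* 1.48-fold (log2 fold change 0.57, standard error 0.0996, adjusted *P*=3.3e-05). *Grem1* had a log2 fold change of 0.30 (adjusted *P*=0.206), with overlapping stages, and *Twsg1* one of 0.18 (adjusted *P*=0.345) with stages that did not overlap. Among all genes, 37.0% had stages that did not overlap in wild type.

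In mutants, 5 members were called higher at E10.5 and none lower, with 19.2% of all genes called (10.8% higher, 8.40% lower). *Smoc2* rose 2.31-fold (log2 fold change 1.21, adjusted *P*=3.21e-12, edgeR's exact test), *Smoc1* 1.5-fold (log2 fold change 0.59, adjusted *P*=6.69e-08), *Nbl1* 1.37-fold (log2 fold change 0.45, adjusted *P*=0.00788) and *Grem1* 1.35-fold (log2 fold change 0.43, standard error 0.107, adjusted *P*=0.00855). *Bmper* rose 1.89-fold from 0.605 ± 0.153 to 1.14 ± 0.240 CPM (log2 fold change 0.92, standard error 0.227, adjusted *P*=0.0101). With same-numbered mutant embryos of both stages as blocks within the genotype, the *Bmper* call was lost (log2 fold change 0.66, adjusted *P*=0.233, edgeR's quasi-likelihood test). Embryos of different stages are different animals, and no label pairs them. The other 4 calls were kept with the block. All 5 were kept without libraries 4 and 5, with log2 fold changes of 1.1 for *Smoc2*, 0.71 for *Smoc1*, 0.5 for *Nbl1*, 0.63 for *Grem1* and 0.99 for *Bmper* (adjusted *P*=0.0750). *Chrd* and *Twsg1* were not called in either genotype. *Nog* and *Fst*, in the fit with no minimum level, were not called in either genotype, with 6.81% of genes called in wild type and 14.1% in mutants. *Nog* had log2 fold changes of -0.15 and 0.24, and *Fst* of -0.55 and -0.47. *Grem1* and *Bmper* passed the test in mutants and not in wild type, and the interaction, which is also the test of this difference, did not pass for either (adjusted *P*=0.963 and 0.940).

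**Figure D2:**
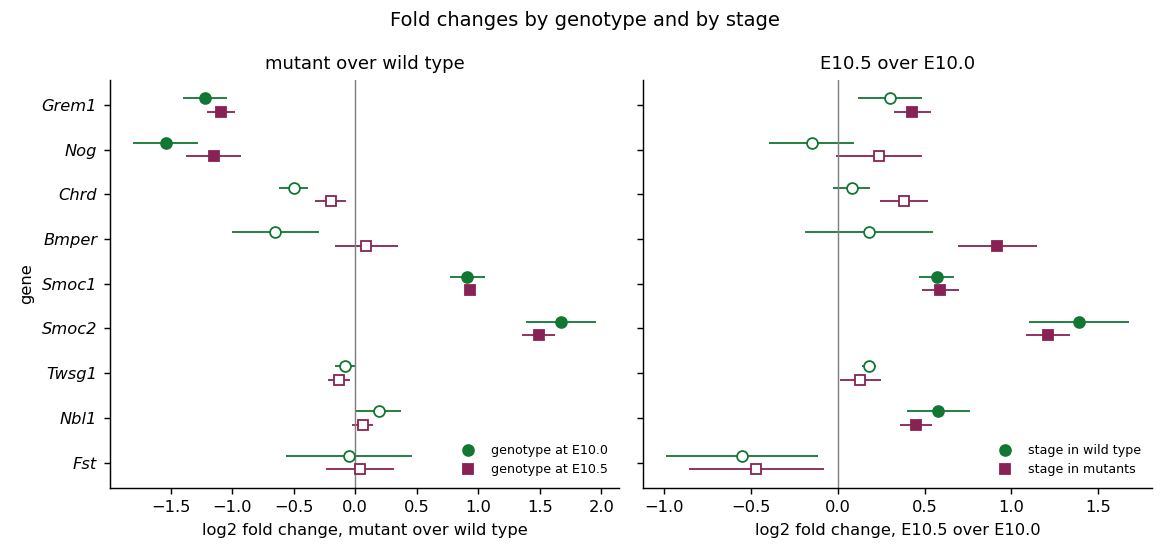
Log2 fold changes of the 9 genes (points) with standard errors (bars) for mutant over wild type at each stage (left) and for E10.5 over E10.0 in each genotype (right), filled where called, with *Nog* and *Fst* taken from the fit with no minimum level. *Grem1* (-1.22 and -1.09) and *Nog* lie left of 0 and *Smoc1* and *Smoc2* right of it at both stages, while *Smoc1*, *Smoc2* and *Nbl1* are filled in both genotypes for stage.

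Levels of different genes were compared per length, as CPM per kb of merged exons. In early wild-type buds the order was *Twsg1* (36.9 ± 1.28), *Smoc1* (13.2 ± 1.49), *Grem1* (5.60 ± 1.03), *Nbl1* (3.65 ± 0.812) and *Smoc2* (0.648 ± 0.195 CPM per kb). *Nog*, *Fst*, *Bmper* and *Chrd* followed at 0.314, 0.295, 0.247 and 0.186 CPM per kb, with embryos that overlapped between neighbours in this order. *Grem1* and *Nbl1* also overlapped, and the other neighbours were apart in every embryo. In wild type at E10.5 the first 5 genes kept this order, each apart from the next, with *Twsg1* at 41.8 ± 1.21, *Smoc1* at 19.5 ± 0.467 and *Grem1* at 6.89 ± 0.763 CPM per kb.

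The order differed in mutants. At E10.0 *Twsg1* (35.0 ± 4.08) and *Smoc1* (24.8 ± 3.54) were followed by *Nbl1* (4.18 ± 0.325), *Grem1* (2.40 ± 0.280) and *Smoc2* (2.07 ± 0.330 CPM per kb), of which *Grem1* and *Smoc2* overlapped. At E10.5 *Twsg1* (38.1 ± 4.45) and *Smoc1* (37.2 ± 1.37 CPM per kb) overlapped, and *Smoc2* (4.80 ± 0.190) stood above *Grem1* (3.23 ± 0.287 CPM per kb) in every embryo. *Nog* was the sixth of the 9 genes in early wild-type buds and the last in mutants at both stages.

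As shares of the 9 genes' summed CPM per kb, *Smoc1* made up 21.5% ± 1.91 in wild type and 35.9% ± 4.39 in mutants at E10.0, then 25.6% ± 0.288 and 41.5% ± 2.63 at E10.5 (SD, n=3 and n=4). *Grem1* made up 9.15% ± 1.45 in wild type and 3.48% ± 0.351 in mutants at the earlier stage, then 9.03% ± 0.987 and 3.59% ± 0.197. *Smoc2* rose from 1.06% to 3.01% and from 2.23% to 5.35%, and *Twsg1* had 60.5% and 50.6%, then 54.7% and 42.3%. No embryo of 1 genotype reached the other's share of any of these 4 genes at the same stage. The summed level was 61.0 ± 2.49 in wild type and 69.1 ± 4.20 in mutants at E10.0, and 76.3 ± 2.09 and 89.9 ± 3.91 CPM per kb at E10.5. A share depends on all 9 genes, and that of *Twsg1* was lower in mutants although its own level did not pass the test.

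**Figure D3:**
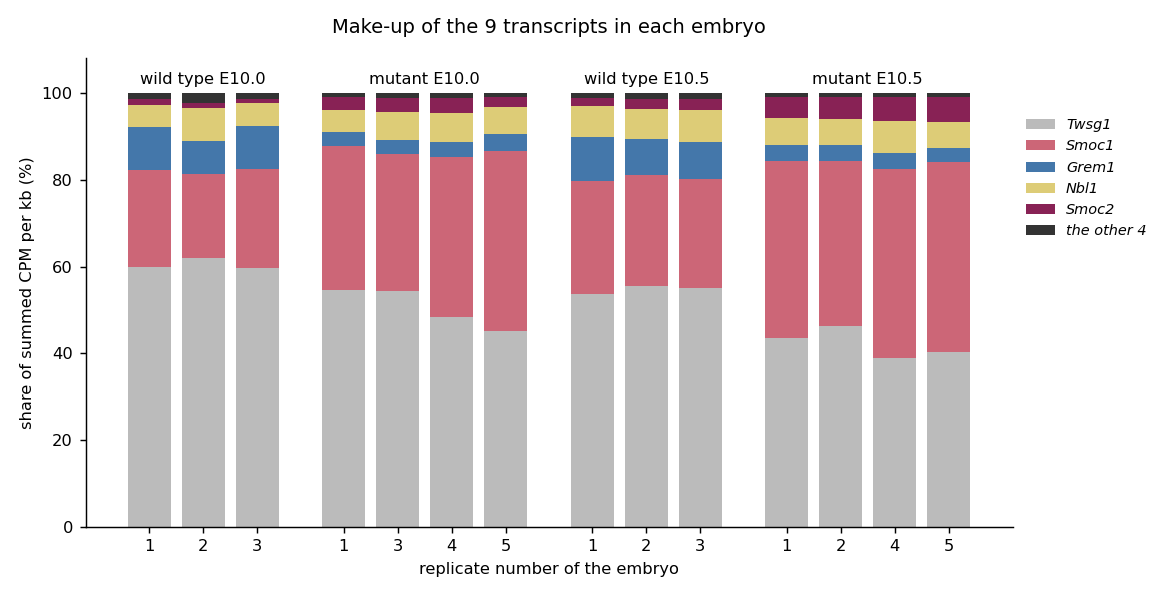
Share of each gene in the summed CPM per kb of the 9 genes (stacked bars, %), with 1 bar per embryo, labelled by replicate number and grouped by genotype and stage; the 4 rarest genes (*Nog*, *Chrd*, *Bmper* and *Fst*) are drawn together. The red share (*Smoc1*) is larger and the blue share (*Grem1*) smaller in every mutant embryo than in the wild type of the same stage.

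A ratio of read counts within 1 embryo does not depend on how libraries are scaled. *Smoc1* had 1.90, 2.18 and 1.92 reads per *Grem1* read in the wild type at E10.0, and 8.76, 8.36, 8.65 and 8.94 in the mutants. The 4 mutants thus had nearly the same ratio, libraries 4 and 5 included. The difference was 4.35-fold (log2 difference 2.12, standard error 0.0675, *P*=0.0286, exact two-sided permutation test), and this *P* is the smallest that 3 embryos against 4 can give. At E10.5 the ratio was 2.15, 2.56 and 2.50 in wild type and 9.23, 8.83, 9.90 and 11.2 in mutants, a 4.06-fold difference (log2 difference 2.02, standard error 0.109, *P*=0.0286, exact permutation test). Since both genes had been called in opposite directions and their groups did not overlap, the direction and the *P* of this ratio follow from those values and add no evidence to them.

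*Bmp4* encodes a ligand that GREM1 binds. *Grem1* had 0.468, 0.340 and 0.493 reads per *Bmp4* read in the wild type at E10.0, and 0.145, 0.130, 0.127 and 0.173 in the mutants. The ratio was 3.00-fold lower in mutants (log2 difference -1.58, standard error 0.195, *P*=0.0286, exact permutation test). At E10.5 it was 0.560, 0.458 and 0.522 in wild type and 0.238, 0.211, 0.164 and 0.160 in mutants, 2.69-fold lower (log2 difference -1.43, standard error 0.164, *P*=0.0286, exact permutation test). Mutant libraries 4 and 5 had the lowest values at E10.5, and replicates 1 and 2 alone still lay below all wild-type embryos. Over the 4 ratio tests, the Benjamini-Hochberg adjusted *P* was also 0.0286. *Bmp4* was itself called higher in mutants at both stages, without overlap, so that the direction and the *P* of this ratio, too, follow from the values of its genes. *Bmp4* overlaps Gm15217 and Gm15222 in the annotation.

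**Figure D4:**
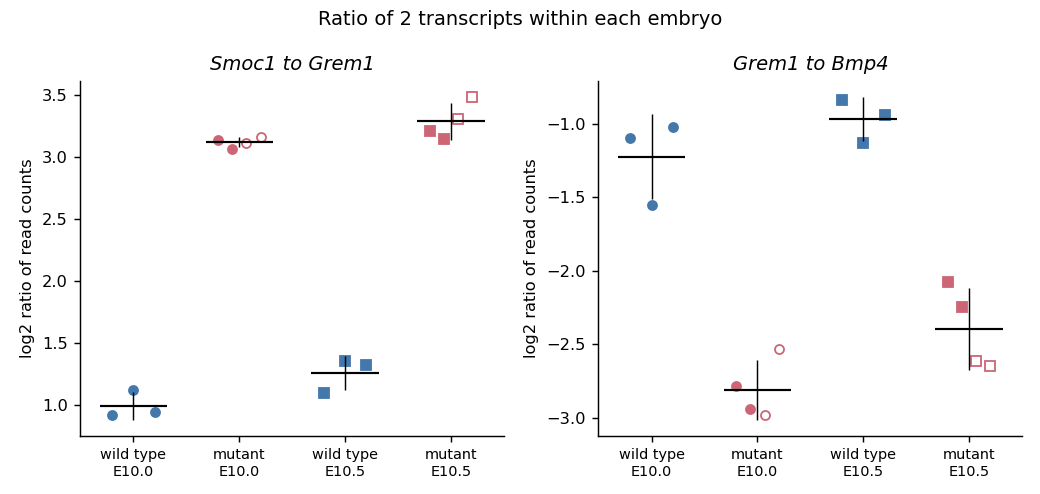
Log2 ratio of read counts of *Smoc1* to *Grem1* (left) and of *Grem1* to *Bmp4* (right) in each embryo (symbols as in the plot of levels), with group means and SD. The wild-type and mutant embryos are apart at both stages, with 1.90 to 2.56 *Smoc1* reads per *Grem1* read in wild type and 8.36 to 11.2 in mutants.

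Other genes of the pathway were counted from lists. Of all genes tested, 6.61% were called at E10.0 (3.33% higher, 3.28% lower) and 3.73% at E10.5 (2.19% higher, 1.54% lower). Of 23 other antagonists and modulators, 12 were tested, and 1 was called higher and 1 lower in mutants at E10.0, and 2 higher and 1 lower at E10.5. *Rgmb*, a membrane-anchored BMP co-receptor, rose from 8.17 ± 0.420 to 11.6 ± 1.01 CPM at E10.0 (log2 fold change 0.51, adjusted *P*=0.00175, edgeR's exact test) and from 12.4 ± 0.60 to 21.3 ± 1.96 CPM at E10.5 (log2 fold change 0.78, adjusted *P*=1.03e-08). *Fstl1*, a secreted follistatin-like protein, fell from 371 ± 22.9 to 295 ± 23.8 CPM and from 368 ± 15.6 to 301 ± 30.1 CPM (log2 fold change -0.33 and -0.29, adjusted *P*=0.0171 and 0.0638). *Tll1*, a protease of the family that cleaves CHRD, was called higher at E10.5 (3.96 ± 0.219 to 5.79 ± 0.451 CPM, log2 fold change 0.55, adjusted *P*=0.0626) and just missed at E10.0 (0.48, adjusted *P*=0.11), a difference between stages that did not pass (interaction adjusted *P*=0.976). *Rgmb* (0.54 and 0.85) and *Tll1* at E10.5 (0.63) stayed called without mutant libraries 4 and 5, and *Fstl1* did not (-0.22 and -0.17).

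Of 10 ligand genes tested out of 13, 2 were called higher and 1 lower at E10.0, and 3 higher and 2 lower at E10.5. The shares called among all genes tested were 6.61% and 3.73%. *Bmp4* rose from 53.6 ± 2.87 to 69.7 ± 6.12 CPM and from 55.7 ± 2.15 to 70.6 ± 9.02 CPM (log2 fold change 0.38 and 0.34, adjusted *P*=0.0114 and 0.0341, edgeR's exact test). *Bmp3*, which encodes a ligand known to oppose other BMPs, rose from 1.07 ± 0.282 to 2.19 ± 1.05 CPM and from 1.35 ± 0.407 to 4.06 ± 0.855 CPM (log2 fold change 1.01 and 1.58). *Bmp2* at E10.5 rose from 2.95 ± 0.477 to 5.54 ± 0.135 CPM (log2 fold change 0.91, adjusted *P*=9.51e-06), *Gdf10* fell from 2.57 ± 0.259 to 0.890 ± 0.251 CPM (log2 fold change -1.5), and *Gdf5*, a gene of joint formation, fell at E10.0 from 0.746 ± 0.304 to 0.311 ± 0.121 CPM (log2 fold change -1.29, adjusted *P*=0.0134). Without mutant libraries 4 and 5, *Bmp4* at E10.5 (log2 fold change 0.20, adjusted *P*=0.242) and *Bmp3* at E10.0 (0.28, adjusted *P*=0.581) were no longer called, and the other calls of these named ligand genes were kept. None of the 7 receptor genes was called at either stage. The receptors with the smallest *P* were *Acvr1b* (log2 fold change -0.22 and -0.16) at both stages, *Bmpr2* at E10.0 (0.22) and *Bmpr1b* at E10.5 (0.12), with adjusted *P* from 0.168 to 0.850.

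Inside the cell, 3 of 5 further SMAD genes were called lower at both stages and none higher, against 3.28% and 1.54% of all genes called lower. The 3 SMAD genes are named next. They were the inhibitory *Smad6* (log2 fold change -0.44 and -0.51) and *Smad7* (-0.51 and -0.46), which BMP signalling induces as negative feedback, and *Smad9* (-1.18 and -2.24), a receptor-regulated SMAD. *Smad9* was rare, falling from 3.29 ± 1.36 to 1.45 ± 0.345 CPM and from 2.03 ± 0.187 to 0.429 ± 0.0926 CPM. Of the 6 target genes, 4 were called lower in the early and 5 in the late mutants, and none higher. *Msx2* fell from 43.8 ± 8.92 to 21.1 ± 5.59 CPM and from 39.6 ± 0.956 to 12.6 ± 2.0 CPM (log2 fold change -1.06 and -1.66). *Id1* had log2 fold changes of -1.24 and -1.33, *Id3* of -1.24 and -1.38, and *Id2* of -0.41 and -0.64. Each call of these named SMAD and target genes was kept without mutant libraries 4 and 5. *Id4*, the other target called lower in the late mutants (log2 fold change -0.99), was not called without them (-0.78, adjusted *P*=0.101, edgeR's exact test). The median log2 fold change was -0.86 and -1.16 over the targets, -0.44 and -0.46 over the SMAD genes, 0.15 and -0.12 over the ligands, 0.06 and -0.05 over the receptors, and -0.045 and 0.004 over the other antagonists.

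**Figure D5:**
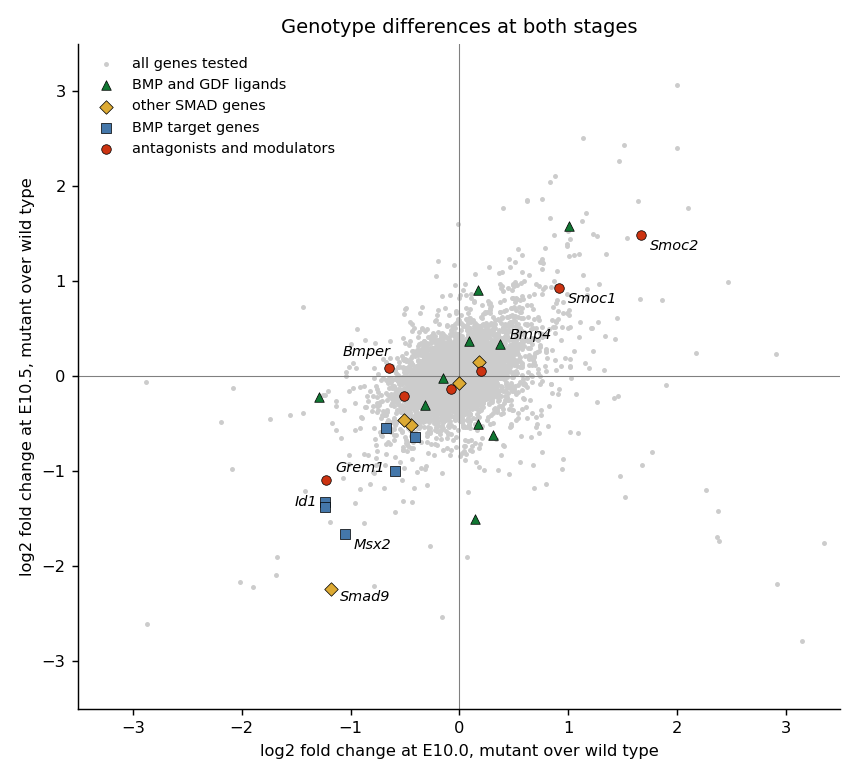
Log2 fold changes of mutant over wild type at E10.0 (horizontal) and at E10.5 (vertical) for all genes tested (grey; 10 genes lie outside of the axes, drawn to 3.5) with the antagonists and modulators and 3 lists of pathway genes in colour. *Smoc1* and *Smoc2* lie in the upper right, and *Grem1* lies in the lower left beside *Id1* and *Msx2*.

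By the likeness of their profiles, measured as the root mean square difference of centred log2(CPM + 1) over the 14 embryos, *Thbs2*, 1110032A04Rik and *Tbx2* came closest to *Grem1* (0.230, 0.238 and 0.283, against 0.585 for a flat profile). *Thbs2*, a matricellular protein gene, had log2 fold changes of -1.01 and -0.92 by genotype, and *Tbx2*, a T-box transcription factor gene, of -0.79 and -1.01. The rare 1110032A04Rik (group means of 0.353 to 1.74 CPM) had larger ones, of -1.89 and -2.22. The 1 added to CPM shrinks the differences of rare genes in this measure. Closest to *Smoc1* were *Tcerg1l*, *Ntn1* and *Zmat4* (0.104, 0.154 and 0.170, against 0.548 for a flat profile), of which *Ntn1*, encoding the secreted guidance cue netrin, rose from 37.0 to 54.6 CPM and from 47.3 to 82.9 CPM. Closest to *Smoc2* were Gm10664, *Tmem163* and *Smoc1* (0.349, 0.389 and 0.390, against 0.860). *Tcerg1l* (group means of 0.744 to 3.18 CPM) and *Tmem163* (0.305 to 2.91 CPM) were rare as well. *Tcerg1l* had log2 fold changes by genotype of 1.35 and 1.29, against 0.91 and 0.93 for *Smoc1*.

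The nearest annotated genes beside the 3 called members were looked up after the values had been seen. *Fmn1*, which holds known limb enhancers of *Grem1* and lies 29.4 kb to its left, was not called (log2 fold change 0.19 and 0.17, adjusted *P*=0.619 and 0.887, edgeR's exact test). *Scg5*, 17.7 kb to the right of *Grem1*, was called higher at E10.0 (log2 fold change 1.03, adjusted *P*=0.0841) and not at E10.5 (-0.01). *Slc8a3*, a sodium-calcium exchanger gene 11.5 kb to the right of *Smoc1*, rose with it, from 3.16 to 6.82 CPM and from 3.77 to 9.18 CPM (log2 fold change 1.1 and 1.29, adjusted *P*=5.14e-08 and 1.64e-11). *Smoc2* lies between *Dact2*, which was not called (-0.25 and -0.05), and *Thbs2*, 260.7 kb to the right, which fell.

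Markers of cell types moved with genotype as well. Of 6 limb bud mesenchyme markers, 4 were called lower in the early mutants (*Prrx1*, *Prrx2*, *Tbx5* and *Twist1*). In the late mutants 3 were called lower (*Prrx1*, *Prrx2* and *Twist1*), and none was called higher at either stage. Of all genes tested, 3.28% and 1.54% were called lower. Without mutant libraries 4 and 5, 2 of these marker calls were kept at each stage. *Prrx2*, a SMAD4 target gene in the paper, fell the most (log2 fold change -1.01 and -0.83). The 5 mesothelium and body wall markers summed to 2.95-4.84 CPM in wild type against 10.8-23.7 CPM in mutants at E10.0, with 3 called higher, and to 5.0-7.66 and 2.41-4.92 CPM at E10.5, with 2 called lower (0 of them without mutant libraries 4 and 5). The 5 sclerotome and somite markers summed to 22.1-24.1 and 21.5-30.8 CPM at E10.0, and to 36.0-44.6 and 19.8-23.1 CPM at E10.5. Among them, *Meox1* was called higher (log2 fold change 0.4) and *Pax1* lower (-2.87) in mutants at E10.0. *Pax1* was also called lower at E10.5 (-2.61), and these calls were kept without mutant libraries 4 and 5. The 6 macrophage markers summed to 2.07-4.93 and 6.28-7.62 CPM, then to 11-11.8 and 13-18.8 CPM. The 5 muscle precursor markers summed to 31.3-35.7 and 30.2-40.1 CPM, then to 36.5-36.8 and 29.8-33.5 CPM, and the 2 hindlimb markers to 1.53-4.33 and 2.34-4.89 CPM, then to 6.78-8.62 and 12.4-16.2 CPM. The 6 endothelial markers summed to 267-310 and 293-344 CPM, then to 273-290 and 291-336 CPM. The summed levels of ectoderm and ridge, erythroid, and neural crest and Schwann cell precursor markers overlapped between genotypes at both stages. Single genes of the lists given as sums were called too, beside *Tbx4* above. At E10.0 *Myf5* (log2 fold change 1.26), *Cx3cr1* (1.34) and *C1qc* were called higher and *Krt5* (-0.4) lower. At E10.5 *Erbb3* (-0.42) was called lower. Without mutant libraries 4 and 5, the calls of *Myf5*, *Cx3cr1* and *Krt5* were kept and that of *Erbb3* was not. Among the markers, only *Hba-a1*, an erythroid globin gene, had no read in any library. The mesothelial sum was higher in the early and lower in the late mutants while *Grem1*, *Smoc1* and *Smoc2* kept theirs, and the part of any of these markers in the genotype differences was not tested.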

How the data were processed

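The authors deposited raw read counts per gene symbol. They had aligned single-end reads of polyA libraries to mm9 with TopHat2 2.0.13, kept unique alignments and counted them with HTSeq without strand, so that reads shared by overlapping genes were dropped. Autosomal genes reaching 1 CPM in 3 or more samples (12393, with 1041 symbols of X, Y and M set aside) were tested with edgeR 4.0.16 (R 4.3.3), with TMM scaling, tag-wise dispersions (prior of 10 degrees of freedom, all 14 samples) and the exact test, after trials on simulated data. The exact test gives no standard error. Those printed come from the replicate spread of log2 CPM (prior count of 2). Embryos were the replicates, and controls were littermates of mutants, with the litter of each embryo not given in the sources used here.

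The members and lists were chosen with earlier results of these data known. Named from each pathway list were genes called by genotype at both stages and the 2 with the smallest *P* per stage. *Id4* was named in addition, for a call that was not kept. Profiles most alike were named for members called by genotype, 3 each. Cell type markers were summed per group. Gene positions and lengths came from the NCBIM37 annotation and promoters from RefSeq. Counts of no 2 replicates agreed within sampling noise (chi-square over degrees of freedom of 14 or more).

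Deviations of same-numbered mutants of both stages correlated over the 3 shared numbers (r from 0.214 to 0.556 across genes). Differently numbered mutants overlapped with these values. Their r was 0.103 to 0.298 within libraries 4 and 5 or within the other mutants, and -0.487 to -0.13 across this divide. The correlations therefore do not establish pairs by number, and the labels give none. Same-numbered wild-type embryos (-0.230 to -0.0480) and genotypes (-0.212 to 0.141) were not paired either. Alternatives were edgeR's quasi-likelihood test, DESeq2 1.42.0, other scaling, filters and samples, and a replicate block.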

Additional observations from a re-analysis of the deposited data

How the results depend on the processing

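Every genotype call of *Grem1*, *Smoc1* and *Smoc2* kept its direction and its side of the threshold under the quasi-likelihood test, DESeq2, RLE scaling, each filter, each choice of samples and the replicate block. Their adjusted *P* by edgeR's quasi-likelihood test was 0.000221 to 0.000348, and 0.00861 to 0.0288 with the replicate block. These are far larger than the values of the exact test. With each library left out in turn, the log2 fold changes stayed between -1.37 and -0.99 for *Grem1*, between 0.82 and 1.0 for *Smoc1* and between 1.39 and 1.90 for *Smoc2*. In the uncalled differences by genotype, *Twsg1* turned to 0.031 and 0.028 under the replicate block and to 0.054 and 0.014 without mutant libraries 4 and 5 (E10.0 and E10.5). Other uncalled values changed sign with 1 library left out. *Bmper* ran from -0.039 to 0.343 by genotype at E10.5 and from -0.065 to 0.355 by stage in wild type, *Nbl1* from -0.006 to 0.115 by genotype at E10.5, and the interactions from -0.064 to 0.108 for *Smoc1*, from -0.408 to 0.023 for *Smoc2* and from -0.115 to 0.026 for *Twsg1*. Beside the *Nog* call given above, the number of members called changed under the replicate block and at a minimum of 5 CPM, where *Bmper* is not tested.

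The counts of all genes called moved more, and the cause was not tested. At E10.0, 819 genes (601 by the quasi-likelihood test) became 1990 by the quasi-likelihood test with the replicate block and 2018 without mutant libraries 4 and 5, and between 254 and 1062 with 1 library left out (254 without wild-type replicate 3 and 494 without mutant replicate 5). At E10.5, 462 (341 by the quasi-likelihood test) became 544 with only these groups fitted and 525 without mutant libraries 4 and 5. With 1 library left out, they became between 286 and 516 (fewest without wild-type replicate 2). By stage in wild type, 1256 (1111 by the quasi-likelihood test) became 1989 with only these groups fitted, 1899 by the quasi-likelihood test with the block, and between 484 and 1515 with 1 library left out (827 or fewer without wild-type replicates 2 or 3 of either stage). The 23 interactions became 87 with DESeq2, 39 with no filter, 5 at a minimum of 5 CPM, 6 without mutant libraries 4 and 5, and between 7 and 34 with 1 library left out, 11 of the 14 libraries moving it by over 1.5 times (to 7 without mutant replicate 5 at E10.5). With the block, edgeR's quasi-likelihood test called 0 (1057 at an unadjusted *P* under 0.05, against 714 without the block). The replicate numbers behind the blocks are shared between genotypes and between stages without a label that pairs the samples. Under this replicate block *Grem1* was called higher at E10.5 in wild type (log2 fold change 0.31, adjusted *P*=0.082), and beside the *Bmper* call given above no other member's call changed.

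The log2 ratios could not pass 0.05 with fewer embryos, since the smallest *P* is then 0.0667 or 0.1. Without mutant libraries 4 and 5, the difference was 2.1 and 1.91 for *Smoc1* to *Grem1* and -1.64 and -1.19 for *Grem1* to *Bmp4* (exact permutation *P*=0.1). With 1 embryo left out, *Smoc1* to *Grem1* ran from 2.08 to 2.18 (E10.0) and from 1.94 to 2.07 (E10.5), and *Grem1* to *Bmp4* from -1.75 to -1.48 and from -1.53 to -1.34. Levels per kb with the longest transcript, or without those libraries, moved by more than the SD in 8 of 54 values. At 6 to 72 reads per embryo, *Nog*, *Chrd*, *Bmper* and *Fst* had the largest counting error.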
